A study of Arabidopsis thaliana with 8 samples.

Results

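The arrays described here compare the roots of the Arabidopsis mutant root meristemless1 (rml1) with the roots of the wild type, the ecotype Columbia-0. They are 2 of the 8 arrays of the series: 1 array of rml1 root RNA and 1 array of wild type root RNA, chosen by their labels and not by any measured value. The other 6 arrays hold shoots of the same seedlings, 3 per genotype. Seedlings were 7 days old and grew on a medium with 1 mM KNO3, 150 µM CaCO3, 100 µM NaH2PO4, 20 µM MgSO4 and 0.5% sucrose, with light at 150 µmol m-2 s-1 for 16 h a day, at 20 °C and 50% relative humidity. No treatment was added in either genotype. The rml1 root sample pooled 234 roots and the wild type root sample pooled 90, so each array averages over many plants, but each genotype is a single pool. Root differences therefore have no replicate check, no p-value and no error of their own, and every root value below is a single measurement.

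The RML1 gene is GSH1, which encodes glutamate-cysteine ligase, the enzyme that opens the synthesis of glutathione. Glutathione is the main soluble thiol of plant cells: it buffers redox state, supplies glutathione S-transferases with their co-substrate and carries reduced sulfur. In rml1 the embryonic root forms but the primary root stops growing soon after germination, because its meristem cells cease to divide. A wild type root of this age holds a dividing meristem, an elongation zone and a long mature zone, so the 2 pools differ in their make-up of cells as well as in genotype. In such bulk samples, fewer cells of a type and less RNA per cell cannot be told apart.

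Values are log2 levels after robust multi-array averaging (RMA), for 29920 loci. A difference is the rml1 root level minus the wild type root level, so 1 log2 unit is a factor of 2, and "2-fold higher" or "lower" below means at least that factor. Of all loci, 1570 (5.25%) were at least 2-fold higher in rml1 root and 2194 (7.33%) at least 2-fold lower, together 3764 (12.6%). Among the 16075 loci above the array median in at least 1 root, these shares were 8.8% and 12.1%. The median difference over all loci was -0.01. These shares are the background for every gene list below.

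As a rough guide to noise, the same count was made between shoot arrays of the same genotype, 6 pairs in all. There between 1.02% and 1.68% of loci differed at least 2-fold, and the median absolute difference was 0.130 to 0.172 log2 units against 0.314 between the root arrays. At 4-fold, 375 loci were higher and 504 lower in rml1 root, where a shoot pair averaged 20.5 loci. At 16-fold the direction was uneven: 55 loci were higher and 23 lower. Noise depended on level, so for each of 20 bins of level the 99th percentile of the shoot pair differences was taken as a guide, which lay between 0.63 and 1.37 log2 units. In roots 4341 loci (14.5%) exceeded it, among them 3393 of the 3764 that differed at least 2-fold. At levels above 4.71 the guide was below 1 log2 unit, so any 2-fold difference there passed it by construction. The noise of root arrays was not measured, and it may be larger than that of shoots.

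**Figure D1:**
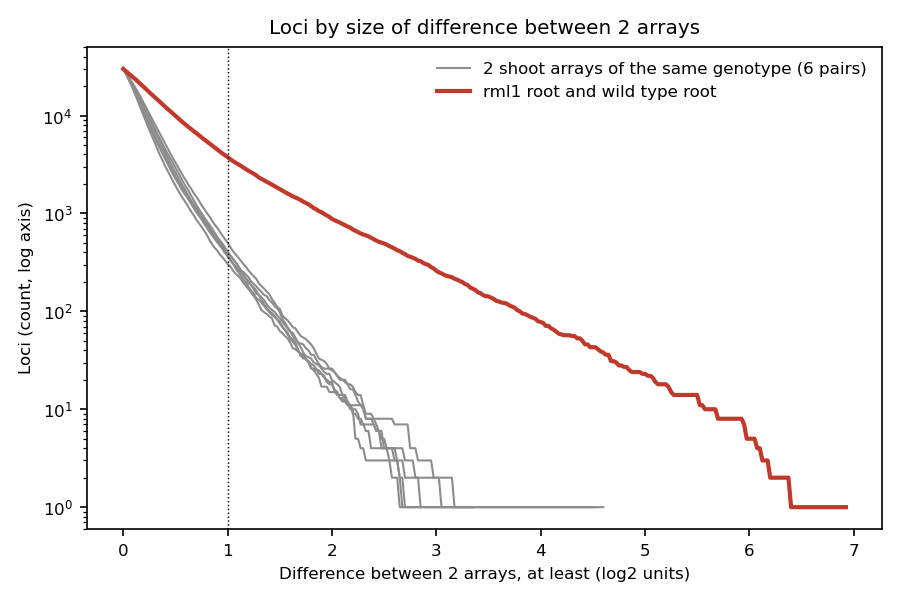
Number of loci (log axis) whose difference between 2 arrays was at least the value on the horizontal axis, in log2 units. The red line is rml1 root against wild type root, the 6 grey lines are pairs of shoot arrays of the same genotype, and the dotted line marks 2-fold, which 3764 loci reached in roots and 304 to 502 in the shoot pairs.

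GSH1 (AT4G23100) itself was 8.97 in rml1 root and 8.14 in wild type root, a difference of 0.83 (1.78-fold), above the guide of 0.69 for its level. In shoots it lay between 8.61 and 8.96 in rml1 and between 8.11 and 8.45 in the wild type, and the groups did not overlap. Its transcript was thus measured at a higher level in both organs of the mutant. The rml1 lesion changes the encoded enzyme, so the transcript level does not check the genotype labels. GSH2, glutathione synthetase, which acts next in the pathway, differed by 0.34.

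Of 24 measured genes of glutathione and cysteine metabolism, 2 were at least 2-fold higher, none was lower, and the median difference was 0.45. GGCT2;1 encodes a gamma-glutamyl cyclotransferase, which breaks glutathione down. It was 6.67 in rml1 root and 4.11 in wild type root, 5.90-fold higher. In shoots GGCT2;1 varied from 5.43 to 6.98 in rml1 and from 5.53 to 5.69 in the wild type, so the groups overlapped. GR1, cytosolic glutathione reductase, was 10.11 against 8.61. The cysteine synthesis gene OASA1 was lower, but by less than 2-fold (9.94 against 10.66).

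Among sulfate uptake and assimilation genes, 7 of 26 were higher and 4 lower, with a median of 0.36. APR2, which reduces activated sulfate on the way to cysteine, was 9.77 against 8.47. Its relatives APR1 and APR3 differed by -0.45 and 0.39. APK1 and APK2, kinases that direct the same activated sulfate to sulfation reactions, were lower, by 1.28 and 1.93. APR2 and the APK genes thus differed in opposite directions. BGLU28, a beta-glucosidase known for its induction in sulfur-starved plants, was 7.91 against 2.40, 45.6-fold higher. LSU1 and LSU2, named for their response to low sulfur, were higher by 1.78 and 1.04. Other members did not reach 2-fold: LSU3 differed by 0.22, the sulfur starvation marker SDI1 by 0.10, and the transporter genes SULTR1;1 and SULTR1;2 by 0.90 and 0.65. The transporter gene SULTR2;1 was higher by 1.88 while SULTR3;5 was lower by 2.63.

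Glutathione S-transferases, which join glutathione to reactive compounds, differed in both directions. Of 45 measured, 15 were at least 2-fold higher and 11 lower, so that 26 passed 2-fold. GSTF6 was 10.96 in rml1 root and 5.85 in wild type root, 34.5-fold higher. GSTU3 was 6.50 against 1.76 and GSTF3 6.24 against 2.15. At the other end GSTU26 was 6.22 against 9.31 and GSTU28 4.68 against 7.63. GSTF11 and GSTU20, which are coexpressed with genes of aliphatic glucosinolate synthesis, were lower by 2.69 and 2.61. GSTU24 and GSTU25, neighbours of GSTU26, differed in the opposite direction to it, higher by 1.88 and 1.79. Transferases of a tandem cluster have similar sequences, and the probes of one can respond to another, which was not tested here.

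The largest difference in the whole comparison was that of a glyoxylate cycle gene. ICL, isocitrate lyase, was 12.03 in rml1 root and 5.09 in wild type root, 123-fold higher. In shoots it was 10.89 to 11.55 in rml1 and 4.85 to 5.17 in the wild type. MLS, malate synthase, the other enzyme particular to the glyoxylate cycle, was 9.97 against 3.87 (68.9-fold). Both genes were therefore high in all 4 rml1 arrays and low in all 4 wild type arrays. The cycle lets seedlings turn the acetyl units of stored oil into sugar precursors.

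Of 44 measured genes in a mixed list of the glyoxylate cycle, beta-oxidation, sugar-linked and starvation genes, 21 were higher and 8 lower, with a median of 0.87. The acyl-CoA oxidase ACX2 was 9.05 against 6.54, the multifunctional protein MFP2 8.70 against 6.49, and the peroxisomal citrate synthase CSY3 9.67 against 7.49. The thiolase gene KAT5 stood the other way, at 5.66 against 7.22. PCK1, which withdraws carbon toward sugar, was 9.81 against 7.74. PPDK, pyruvate orthophosphate dikinase, was 15.4-fold higher. Seed reserve genes gave no such difference: of 21 (seed storage albumins, cruciferins, oleosins and regulators of seed filling) none passed 2-fold, their median was 0.07, and 2 of 21 were above the array median in either root array.

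Other members of that list marked sugar status and low oxygen. DIN2, a beta-glucosidase gene induced in the dark, was 8.96 in rml1 root and 2.77 in wild type root, 73.1-fold higher, whereas in shoots it was 3.02 to 3.48 in rml1 and 2.59 to 2.72 in the wild type. GPT2, a plastid glucose-6-phosphate transporter, was 6.64 against 2.73. STP13, a hexose importer, was 9.20 against 6.26. The fermentation genes PDC1 and ADH1 were higher by 3.20 and 1.95, and the sucrose synthase SUS3 by 2.16. On the lower side stood sugar carriers of the tonoplast and plasma membrane: SWEET16, a vacuolar carrier, was 4.65 against 8.21, and STP1 6.22 against 7.94. The cytosolic invertase CINV1 was lower by 1.07.

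**Figure D2:**
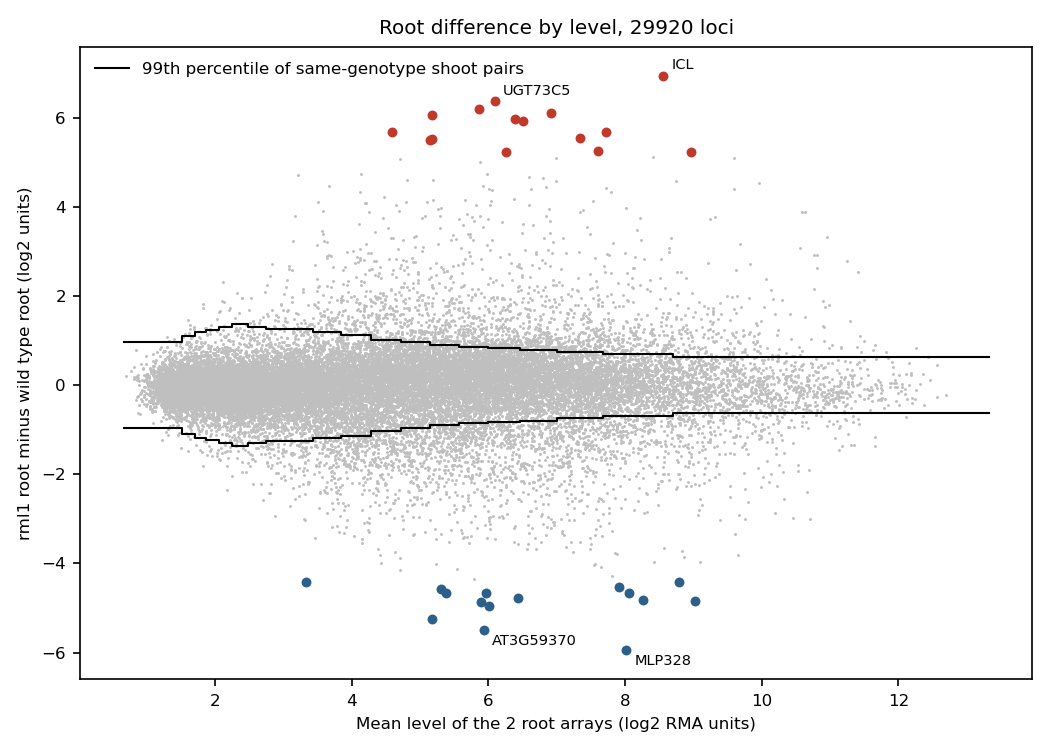
Each grey point is a locus, with its mean level in the 2 root arrays on the horizontal axis and the difference, rml1 root minus wild type root, on the vertical axis, both in log2 RMA units. Black steps mark the 99th percentile of same-genotype shoot pairs at that level, and coloured points are the 15 largest differences in each direction, from ICL at 6.94 to MLP328 at -5.95.

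Genes of mitochondrial and oxidative stress had the highest median of the 36 lists: 12 of 14 were at least 2-fold higher, none was lower, and the median difference was 2.91. The list was written with earlier results of these data known, so its direction is a description. AOX1A and AOX1D encode alternative oxidases, which pass electrons from ubiquinone to oxygen and bypass the later complexes of the respiratory chain. AOX1A was 11.18 against 8.47 and AOX1D 6.66 against 2.62. In shoots AOX1A was 9.05 to 9.59 in rml1 and 7.39 to 7.73 in the wild type, while AOX1D overlapped between the genotypes at 2.31 to 2.58 and 2.37 to 2.43. OM66, a protein of the outer mitochondrial membrane, was 15.6-fold higher, and NAC013, a transcription factor of mitochondrial retrograde signalling, 7.09-fold higher. The zinc finger genes ZAT12 and ZAT10 were higher by 2.99 and 1.99. UGT74E2, a glucosyltransferase that acts on the auxin precursor indole-3-butyric acid, was 11.20 against 7.43. The loci AT2G21640 and AT2G41730, which the gene table does not name, were higher by 5.68 and 5.22. HSP17.6A, a small heat shock protein gene, was higher by 4.40, NDB2 by 1.56 and DIC2 by 1.20. Among wild type shoot arrays HSP17.6A varied from 2.38 to 4.35. The remaining members, NDA2 and RRTF1, were above the wild type by less than 2-fold.

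Heat shock and protein folding genes gave 4 of 22 higher and none lower, with a median of 0.49. HSP17.6II, a small heat shock protein, was 7.43 in rml1 root and 3.70 in wild type root. Its level varied among wild type shoot arrays from 3.53 to 6.89, a spread of nearly the same size as the root difference. HSP17.4 was 7.75 against 5.08 and HSP81-1 8.48 against 6.72. These also varied among wild type shoot arrays, HSP17.4 from 3.18 to 5.64 and HSP81-1 from 5.06 to 6.17.

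**Figure D3:**
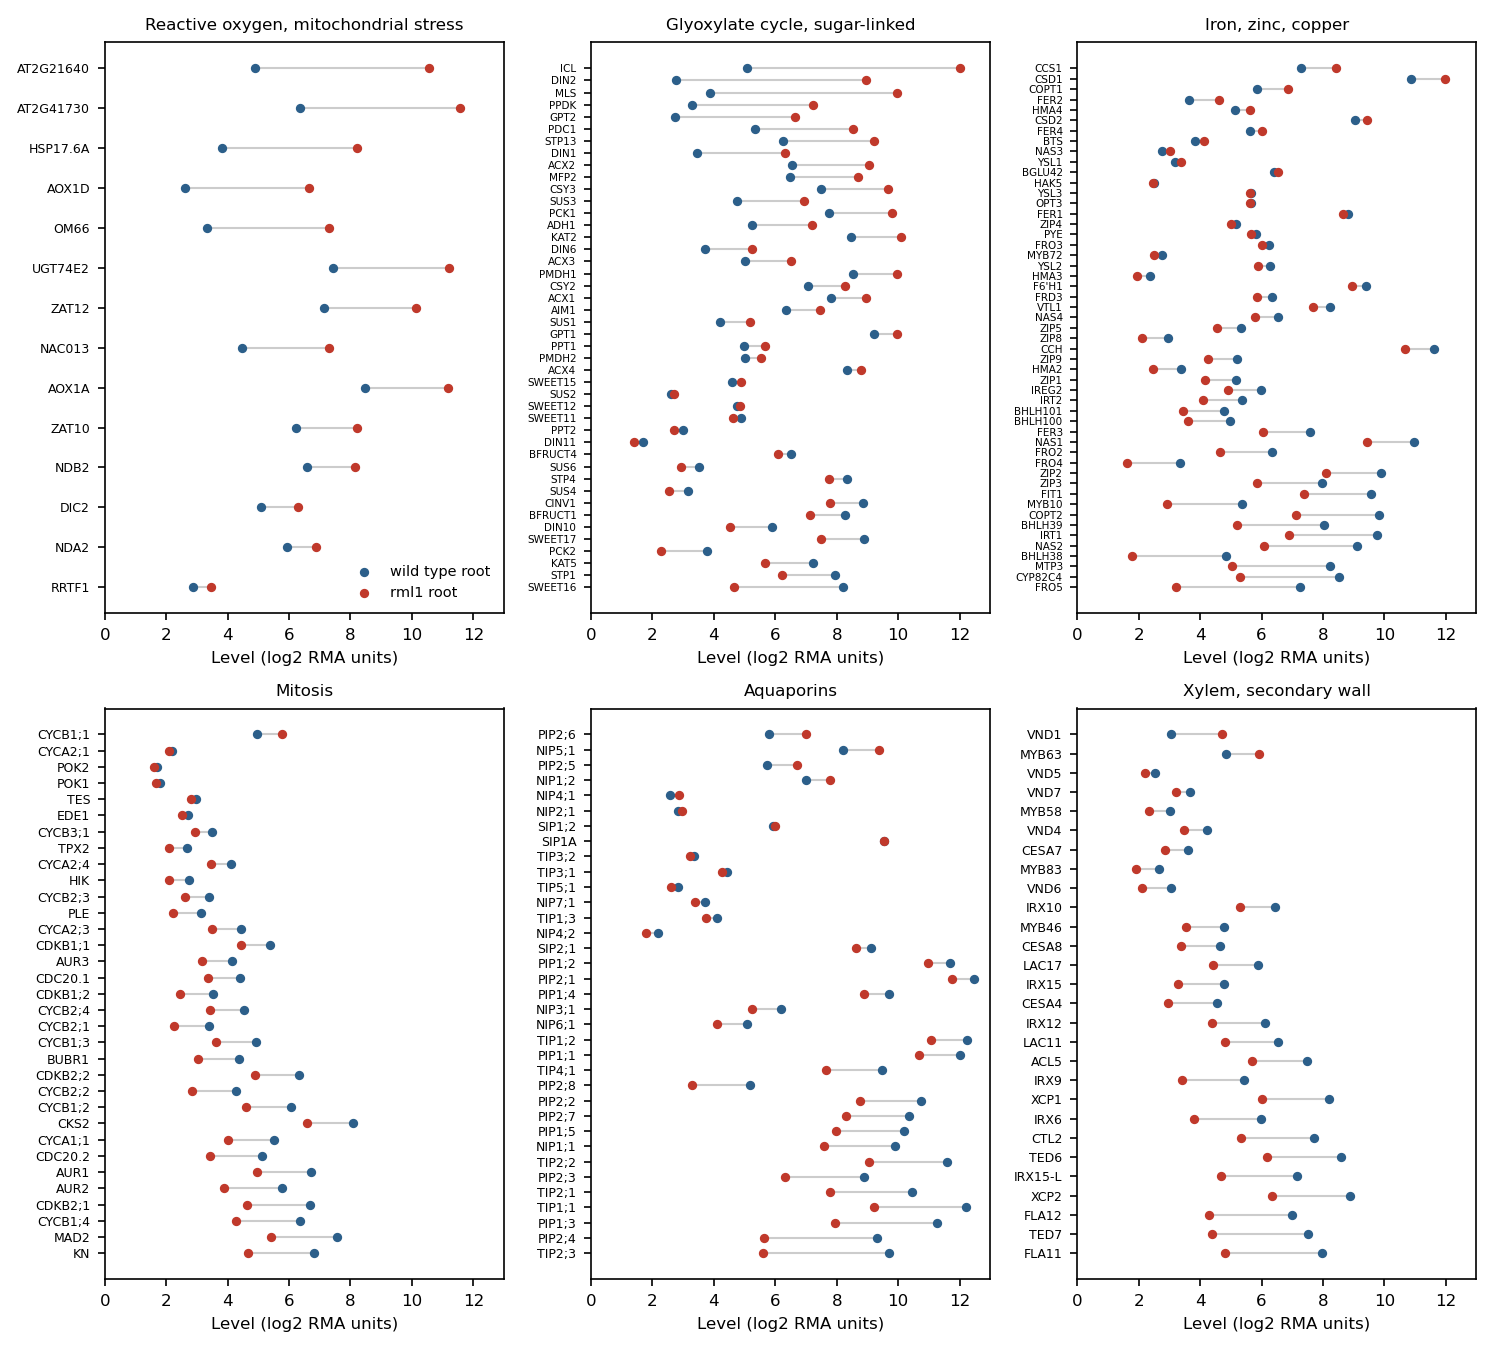
Level in wild type root (blue) and rml1 root (red) of every measured member of 6 gene lists, in log2 RMA units, ordered by difference. Members of the oxidative stress list all lie to the right in rml1 root, while 18 of 33 mitosis genes, 15 of 35 aquaporin genes and 19 of 28 xylem and secondary wall genes are at least 2-fold lower there.

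Genes of mitosis were low in rml1 root. Of 33 measured, 18 were at least 2-fold lower, none was 2-fold higher, 32 were below the wild type, and the median difference was -1.06. KN, the syntaxin that fuses vesicles into the new cell plate, was 4.66 in rml1 root and 6.83 in wild type root. MAD2, of the spindle checkpoint, was 5.40 against 7.56, the mitotic kinase CDKB2;1 4.64 against 6.68, and the mitotic cyclin CYCB1;4 4.28 against 6.36. Kinases of chromosome segregation were lower as well: AUR1 by 1.73 and AUR2 by 1.90. In shoots the median of the same list differed by -0.07.

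The member above the wild type was CYCB1;1, a cyclin that also responds to DNA damage. It was 5.79 in rml1 root and 4.96 in wild type root (0.82). Among 13 DNA damage genes 2 were higher and none lower: XRI1, 6.92 against 4.86, and PARP2, 5.35 against 3.86. Of the inhibitors of cyclin-dependent kinases, SMR7 and SMR5, known for their induction by reactive oxygen, were 7.12 against 4.86 and 8.41 against 7.35. Within the list of 22 D-type cyclins and such inhibitors, 3 were higher and 1 lower, CYCD3;1, by 1.03.

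DNA replication genes differed less. Of 26, 3 were lower and 1 higher, with a median of -0.28. PCNA1 and PCNA2, the sliding clamps of the replication fork, were lower by 1.35 and 1.32. RNR2A, a small subunit of ribonucleotide reductase, which makes deoxynucleotides, was 7.48 against 5.54 and so stood apart in direction.

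Of 22 measured regulators of the root meristem, 3 were lower and none higher, with a median of -0.33. TMO7, a small helix-loop-helix protein that acts downstream of auxin in root initiation, was 5.50 against 7.81. UPB1, which sets the balance of reactive oxygen at the transition from division to elongation, was 5.17 against 6.99, and the peptide gene RGF3 2.96 against 4.39. The stem cell regulators PLT1 (2.35 against 2.84), PLT2 (3.16 against 3.40) and WOX5 (2.91 against 2.86) differed by less than 1 log2 unit and lay below the array medians. SHR and SCR, regulators of the endodermis and stem cell niche, differed by -0.43 and -0.37. In the root cap list 3 of 8 were lower: the cap cellulase CEL5 was 3.42 against 5.95, the cap maturation factor BRN1 3.50 against 4.88, and the metacaspase MC9 5.67 against 6.72.

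Differentiated cell types differed from each other. The Casparian strip is a lignin ring in the wall of the endodermis, positioned by membrane proteins of the CASP family. Of 13 measured genes 8 were lower and none higher, with a median of -1.83. CASP5 was 4.37 in rml1 root and 7.82 in wild type root, and CASP1 8.24 against 10.10. The peroxidase PER64 and the dirigent-like protein ESB1, which act in making the ring, were lower by 2.04 and 1.83. MYB36, the transcription factor known to switch these genes on, was above the wild type, at 6.82 against 5.95, and the receptor kinase SGN3 differed by 0.09.

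Suberin genes, active in the later endodermis, gave 3 of 20 lower and none higher, with a median of -0.27. The lower members were the transcription factors MYB92, MYB53 and MYB93 (4.95 against 6.54, 3.39 against 4.50 and 5.50 against 6.54). MYB53, at a difference of -1.10, did not pass the guide of 1.13 for its level. Enzymes of suberin synthesis differed by less than 2-fold, for example GPAT5 (7.73 against 7.24), CYP86A1 (8.77 against 8.45) and ASFT (8.38 against 8.68).

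Xylem and secondary wall genes were lower in 19 of 28 cases and higher in 2, with a median of -1.54. FLA11 and FLA12, fasciclin-like proteins of secondary walls, were 4.80 against 7.97 and 4.28 against 6.99. XCP1 and XCP2, proteases that clear dying vessel cells, were lower by 2.16 and 2.53, and TED7, of tracheary element differentiation, by 3.14. The secondary wall cellulose synthases CESA4 and CESA8 were lower by 1.60 and 1.27, and CESA7 by less than 2-fold. The higher members were the regulators VND1, 4.71 against 3.05, and MYB63, 5.93 against 4.84. Lignin genes, active also outside the xylem, were 3 higher and 4 lower of 24, with a median of -0.01.

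Phloem genes were 2 higher and 2 lower of 24, with a median of -0.15. The sieve element proteins SEOR1 and SEOR2 were lower by 1.33 and 1.22. CLE41 and CLE44, which encode the phloem-made peptide that keeps vascular stem cells from becoming xylem, were 7.51 against 6.02 and 6.58 against 5.20. The companion cell sucrose carrier SUC2 differed by 0.51. Root hair genes were 1 higher and 5 lower of 32, with a median of -0.52. ADF8, an actin-severing factor of hair cells, was 6.55 against 8.52. WER, which specifies non-hair cells, was 4.63 against 6.44, while RHD6 and RSL4, which start hair growth, differed by 0.77 and 0.35.

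Genes of green tissue were included because shoot tissue can be carried into a root sample. Of 37 photosynthesis genes 2 were higher and none lower, with a median of 0.43. Their median level was 7.99 in rml1 root and 7.54 in wild type root, against 12.26 to 12.42 in the 6 shoot arrays. RBCS1A, a small subunit of Rubisco, was 10.99 against 9.39, and GAPA 8.28 against 7.24. The summed linear level of the list was 12333 in rml1 root, 9664 in wild type root and 175900 to 195927 in shoots, and none of its members lay below the array median in both roots. Green tissue genes were thus measured slightly higher in the rml1 root pool, alongside the differences of the other groups, and their part in those was not tested.

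**Figure D4:**
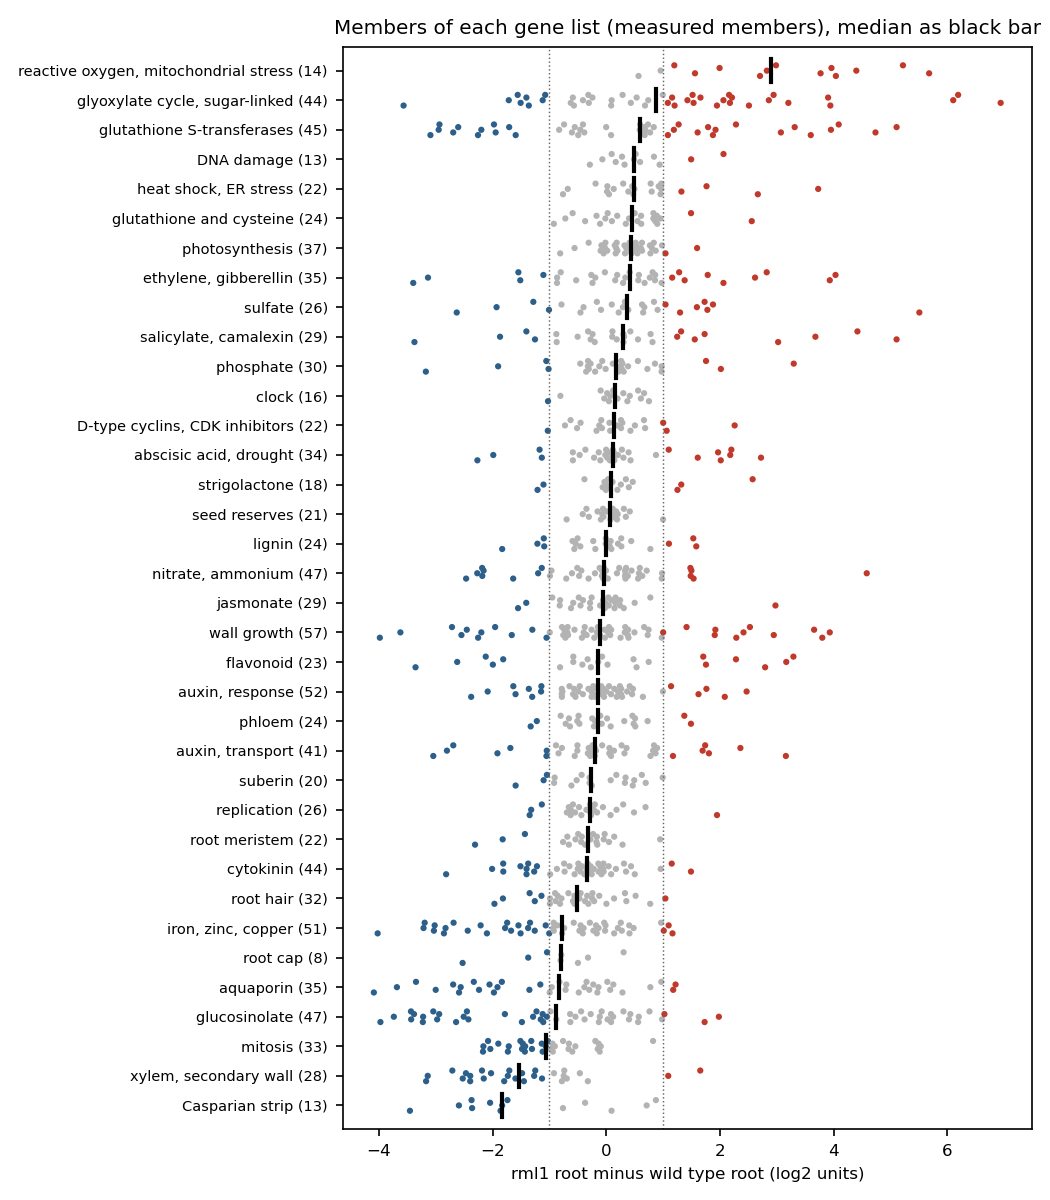
Difference between rml1 root and wild type root, in log2 units, for each measured member of 36 gene lists, with the number of measured members after each name and the median as a black bar. Red points are at least 2-fold higher, blue points at least 2-fold lower and grey points less than that; list medians run from 2.91 for oxidative stress genes to -1.83 for Casparian strip genes.

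The series sets rml1 in the context of auxin and strigolactone signalling. Auxin response genes gave 5 higher and 8 lower of 52, with a median of -0.15. ARF5, the activating factor of embryonic root and vascular development, was 6.47 in rml1 root and 3.995 in wild type root. The repressors of the Aux/IAA family were mostly lower where they passed 2-fold: IAA27 was 4.71 against 7.08, IAA3 4.07 against 6.16 and IAA13 6.97 against 8.60, while IAA26 was higher by 1.14. LBD16, which acts in lateral root initiation, was 7.10 against 5.33. Its relative LBD29 was lower by 1.14, but lay below the array medians in both roots and within the guide of 1.25 for its level. The conjugating enzyme GH3.3 was higher by 1.62.

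Auxin synthesis and transport genes gave 6 higher and 7 lower of 41, with a median of -0.20. All 3 LAX influx carriers were lower: LAX3 was 6.53 against 8.45, LAX1 4.56 against 5.61 and LAX2 4.91 against 5.96. AUX1 differed by -0.78. Of the efflux carriers, PIN5, which resides in the endoplasmic reticulum, was 3.74 against 6.43, whereas PIN2, PIN3, PIN4 and PIN7 differed by less than 1 log2 unit (-0.56 to 0.27). PID, the kinase that directs PIN proteins, was 5.82 against 4.12, and ABCB4, another auxin carrier, 8.22 against 6.41. In synthesis, the tryptophan aminotransferase TAR2 was 3.14 against 5.95 and YUC3 4.05 against 5.74. The nitrilases were higher: NIT2 was 11.26 against 8.10, NIT4 8.13 against 5.77 and NIT1 10.90 against 9.16. NIT1 and NIT2 lie close to each other and have similar sequences, so their signals may be shared.

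Of 18 strigolactone and karrikin genes 3 were higher and 2 lower, with a median of 0.09. CCD8, a carotenoid cleavage enzyme of strigolactone synthesis, was 5.88 against 3.31. D14, the strigolactone receptor, was 9.87 against 8.62, and SMAX1, a repressor removed through karrikin signalling, 5.47 against 4.15. The lower members were HB40 (2.84 against 4.05) and BBX20 (4.90 against 6.01). MAX2, the F-box protein that both pathways use, differed by 0.35, and CCD7 lay below the array medians in both roots.

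Cytokinin genes were lower in 10 of 44 cases and higher in 2, with a median of -0.34. The type-A response regulators, which cytokinin induces and which restrain its signal, accounted for most: ARR7 was 4.59 in rml1 root and 7.40 in wild type root, ARR3 4.48 against 6.29 and ARR6 6.95 against 8.46, and ARR4, ARR8 and ARR9 were each at least 2-fold lower, ARR4 by 1.37. The synthesis gene IPT5 was lower by 1.81 and the oxidase CKX4, which degrades cytokinin, by 2.01. CRF6, a response factor linked to stress, was higher by 1.49.

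Ethylene and gibberellin genes gave 9 higher and 5 lower of 35, with a median of 0.41. ACS7 and ACS2 make the ethylene precursor ACC: ACS7 was 8.62 against 4.58 and ACS2 6.06 against 3.23. The receptor ERS1 and the feedback regulator EBF2, both induced by ethylene, were higher by 1.28 and 1.38. For gibberellin, GA3OX1 and GA3OX2, which complete the active hormone, were 5.01 against 8.14 and 3.94 against 7.34, and GA2OX2, which inactivates it, was 5.34 against 3.56. GA2OX1 was lower by 1.55.

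Among abscisic acid and drought genes 7 of 34 were higher and 4 lower, with a median of 0.11. RD22 was 7.82 against 5.09, the phosphatase ABI1 9.20 against 7.00 and the catabolic CYP707A1 6.80 against 4.79. The dehydrins COR47 and ERD10 were lower, by 2.27 and 1.99. Jasmonate genes gave 1 higher and 2 lower of 29, with a median of -0.06. MYC2, a master regulator of jasmonate responses, was 4.24 against 5.80, and the catabolic CYP94B3 was 7.20 against 4.22.

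Defence genes differed in both directions. In the salicylate and camalexin list 8 of 29 were higher and 4 lower, with a median of 0.30. Higher members belonged mainly to camalexin and related indole synthesis: CYP71A12 was 9.93 in rml1 root and 5.51 in wild type root, CYP82C2 7.64 against 3.96 and PAD3 8.05 against 5.03. Lower members act with salicylate: WRKY54 was 2.35 against 5.72, EDS5, the chloroplast exporter of salicylate, 4.77 against 6.64, and WRKY70 3.53 against 4.79. ALD1, of pipecolic acid synthesis, was lower by 1.41. The pathogenesis-related genes PR3 and PR4 were higher, by 1.25 and 1.32. Other members of both branches differed by less than 2-fold, among them ICS1 (0.30), EDS1 (-0.50), NPR1 (0.11), PR1 (-0.27) and the camalexin gene CYP71A13 (0.31). The list as a whole thus did not divide by branch.

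Glucosinolate genes were lower in 22 of 47 cases and higher in 3, with a median of -0.88. Several genes of the aliphatic branch, which starts from methionine, were among the lower ones. BCAT4, its entry step, was 6.44 against 10.41, CYP83A1 4.97 against 8.41, CYP79F2 3.91 against 7.34 and the chain elongation enzyme MAM1 5.10 against 8.04. MYB28, the main regulator of this branch, was 4.72 against 7.69. CYP79F1, at 2.34 against 2.47, and the regulator MYB29, at 1.94 against 2.06, had low signals in both roots. In shoots BCAT4 was 4.43 to 5.26 in rml1 and 7.57 to 8.66 in the wild type, so rml1 was below the wild type in both organs. In the indole branch, CYP79B3 was 4.49 against 7.53 but its relative CYP79B2 differed by 0.08, and the regulators differed in opposite directions, with MYB34 lower by 1.48 and MYB51 higher by 1.73. The nitrile-specifier NSP3, which directs glucosinolate breakdown, was 2.76 against 6.50, and NSP5 10.56 against 8.57.

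Some flavonoid genes differed by step. Of 23, 6 were higher and 5 lower, with a median of -0.14. Several genes of the early steps were low in rml1 root: TT4, chalcone synthase, was 8.49 against 11.11 and TT5 7.56 against 9.56. F3H was 7.59 against 9.71 and FLS1, which makes flavonols, 5.89 against 9.25. MYB12, the regulator of the flavonol steps, was 4.46 against 6.28. Several genes of the late steps toward anthocyanin were high: DFR was 6.26 against 2.96 and LDOX 4.94 against 3.24. The anthocyanin regulators MYB75 and MYB90 were 5.52 against 2.72 and 5.79 against 2.62. Another 12 members differed by less than 2-fold, among them TT7 (-0.58), UGT78D2 (-0.42), 5MAT (0.53) and TT8 (0.48). Not every member thus followed this pattern. In shoots early and late genes were both above the wild type, with TT4 at 10.98 to 11.42 in rml1 and 9.31 to 9.79 in the wild type, and the list's median shoot difference was 1.59.

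Iron, zinc and copper genes were lower in 21 of 51 cases and higher in 3, with a median of -0.78. Iron uptake genes of the root epidermis were low: the ferrous iron transporter IRT1 was 6.89 in rml1 root and 9.74 in wild type root, the ferric chelate reductase FRO2 4.66 against 6.33, and their regulator FIT1 7.37 against 9.58. BHLH38 and BHLH39, partners of FIT1, were 1.79 against 4.83 and 5.20 against 8.03. Among rml1 shoot arrays BHLH38 varied from 1.87 to 3.16 and BHLH39 from 3.52 to 5.54. BHLH100 and BHLH101 were lower by 1.38 and 1.34, less than their spread of 1.54 and 1.45 among rml1 shoot arrays. FRO5, a copper reductase gene, was 3.22 against 7.24, and the copper importer COPT2 7.13 against 9.82. The zinc transporter MTP3 was lower by 3.20. The higher members belonged to copper: CSD1, copper/zinc superoxide dismutase, was 11.98 against 10.88, its chaperone CCS1 8.44 against 7.28 and the importer COPT1 6.87 against 5.86.

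Aquaporins were lower in 15 of 35 cases and higher in 2, with a median of -0.82. TIP2;3, a tonoplast channel, was 5.61 against 9.69, TIP1;1 9.21 against 12.21, and the plasma membrane channels PIP2;4 and PIP1;3 were 5.64 against 9.33 and 7.93 against 11.28. PIP2;6 and the boric acid channel NIP5;1 were higher, by 1.22 and 1.18.

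Nitrogen genes gave 5 higher and 8 lower of 47, with a median of -0.04. NRT1.8, which withdraws nitrate from the xylem, was 9.28 in rml1 root and 4.70 in wild type root. NRT1.5, which loads nitrate into the xylem, was 7.75 against 10.02. The nitrate reductases differed in opposite directions, NIA2 higher by 1.48 and NIA1 lower by 1.64. The ammonium carriers AMT1;2 and AMT1;3 were lower by 2.16 and 1.20, and the nitrate-induced BT1 by 2.47. Phosphate genes were 3 higher and 4 lower of 30, with a median of 0.16. The ribonuclease RNS1 was 8.73 against 5.44 and the phosphatase PAP17 6.71 against 4.69, while the importer PHT1;2 was 2.33 against 5.51 and PHO1, which loads phosphate into the xylem, was lower by 1.02.

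Cell wall growth genes had large differences in both directions, 11 higher and 11 lower of 57, with a median of -0.11. Expansins loosen walls: EXPA1 was 9.35 in rml1 root and 5.42 in wild type root, EXPA10 8.03 against 4.38 and EXPA8 8.18 against 5.23, whereas EXPB1 was 4.81 against 7.53 and EXPA15 5.98 against 8.44. Among the xyloglucan-modifying enzymes, XTH7 was 8.74 against 4.94 and XTH21 2.43 against 6.42. EXPA1 lay at 9.90 to 10.23 in all 6 shoot arrays, so its rml1 root level was nearer to that of shoots than its wild type root level was. The same held for EXPA8, EXPA10, EXPA15, XTH7 and XTH21, but not for EXPB1. Clock genes were included as a check of harvest time: of 16, none was 2-fold higher and 1 lower, ELF4, 4.62 against 5.65, with a median of 0.16.

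The 15 largest differences in each direction ran from 5.22 to 6.94 upward and from -4.41 to -5.95 downward. These loci were chosen by size, so passing the guide, at most 1.37 log2 units at any level, was fixed in advance. Each difference also exceeded the same-genotype shoot differences at its locus, which the choice by size favours. Of all 29920 loci, 14041 did so. Just outside these ranks stood GSTF6 at 5.11 and AT5G42500 at -4.35. Upward, besides genes already given, UGT73C5 (DOGT1), which glucosylates the toxin deoxynivalenol and brassinosteroids, was 9.28 in rml1 root and 2.90 in wild type root. TH8, a thioredoxin of the h type, was 10.24 against 4.98, PYD4, of pyrimidine breakdown, 8.86 against 3.64, and the peroxidase PRX52 7.93 against 2.41. The unnamed loci AT5G24640, AT4G12735, AT2G18150, AT5G52390 and AT2G04050 were higher by 5.55 to 6.07. In shoots rml1 was above the wild type without overlap for 13 of these 15 loci; over all loci, 42.1% did not overlap between the shoot groups in either direction.

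Downward, the largest difference was that of MLP328, a major latex protein-like gene, 5.04 in rml1 root and 10.99 in wild type root, 61.9-fold lower. Its level varied widely among wild type shoot arrays, from 2.48 to 5.84. In rml1 shoots it was 1.76 to 2.41, so the shoot groups were only narrowly apart. ANNAT7, an annexin, was 3.53 against 8.48, and AGP13, an arabinogalactan protein, 6.60 against 11.44. CP2, the cysteine protease AT4G11320, was 5.72 against 10.38, VTL5, an iron transporter-like protein (AT3G25190), 5.65 against 10.18, DR4, a gene repressed in drought, 6.58 against 11.00, and UMAMIT26 1.13 against 5.54. The 8 other loci have no name in the gene table: AT3G59370 was lower by 5.50, AT3G18450 by 5.24, AT5G03995 by 4.86 and AT1G12080 by 4.83, AT4G11210 by 4.78 and AT3G26460 by 4.66, AT3G01345 by 4.65 and AT4G25250 by 4.57. In shoots 8 of the 15 overlapped between genotypes, 6 were lower in rml1 and 1 was higher. AT3G01345 was low in every rml1 array: 3.31 to 3.80 in rml1 shoots and 3.64 in rml1 root, against 8.47 to 8.78 in wild type shoots and 8.29 in wild type root.

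**Figure D5:**
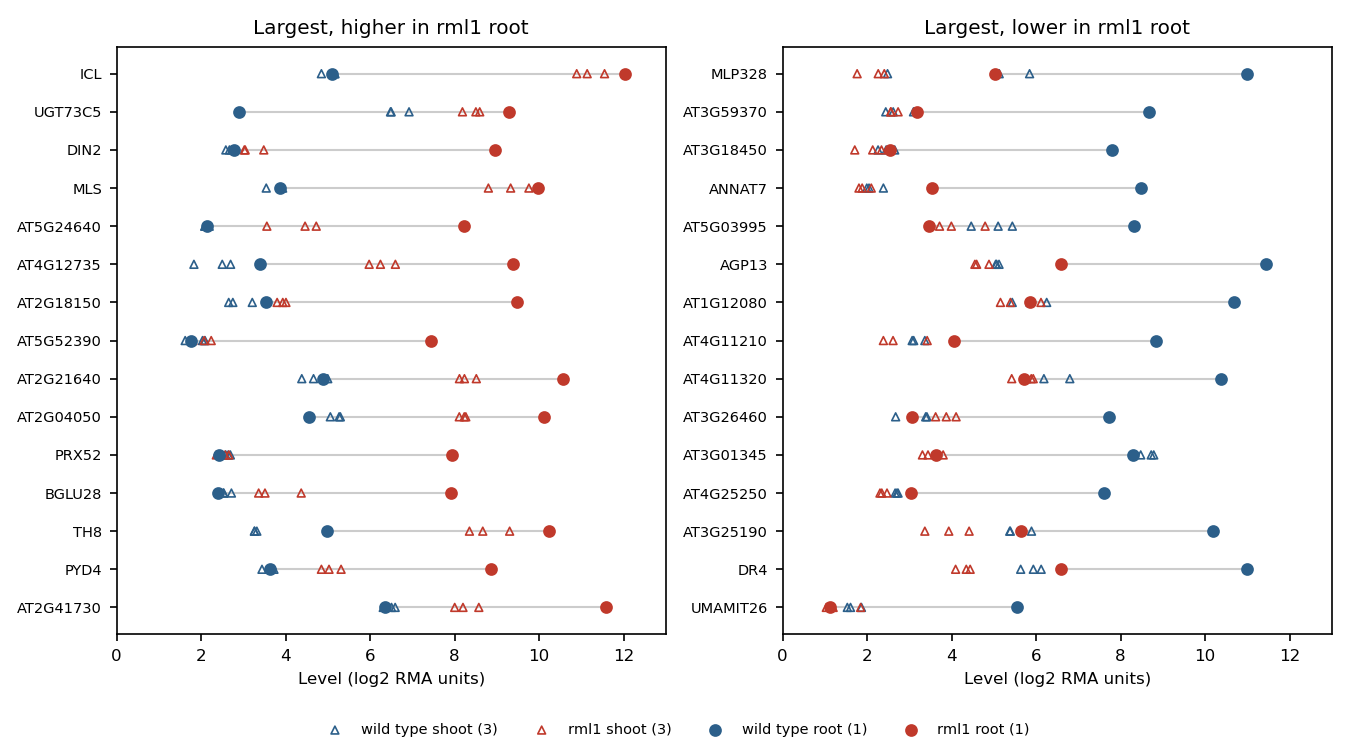
Level in all 8 arrays, in log2 RMA units, of the 15 loci with the largest difference in each direction; filled circles are the root arrays and open triangles the shoot arrays. Among the higher loci ICL and MLS are high in rml1 roots and shoots alike, whereas the lower loci other than AT3G01345 are highest in wild type root and below it in every shoot array; AT3G01345 is low in all 4 rml1 arrays.

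Across loci, differences in root and shoot were set side by side. Of the 1570 loci higher in rml1 root, 329 (21.0%) were also at least 2-fold higher in the rml1 shoot mean, which is 40.4% of the 815 loci higher there, and 26 (1.66%) were at least 2-fold lower. Of the 2194 lower in rml1 root, 220 (10.03%) were lower in shoots too, 32.1% of 686, and 37 (1.69%) were higher. In shoot means 2.72% of loci were at least 2-fold higher and 2.29% lower. The correlation of the root difference with the shoot difference over 29920 loci was r = 0.36. Loci are not independent replicates and both organs come from the same plants, so this is a description.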

How the data were processed

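RNA of pooled roots or shoots was hybridised to Affymetrix Agronomics tiling arrays, 1 sample per array. Per the submitters' processing notes, the authors made log2 values by RMA and deposited 30237 entries; the RMA version, the probe sets behind each entry and the build were not stated. Detection above background was not analysed here, and for arrays the number of arrays limits the precision. The labels call the shoot samples of a genotype biological replicates; roots have 1 array each.

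Entries were averaged by locus code to 29920 loci (208 had several entries, of which 16 had some entries past 2-fold and others not; 85 entries equalled another). Names came from a RefSeq gene table of TAIR10.1, which held 29398 of the loci; no genome positions were used. The computation, in Python 3.11.15 with pandas 2.3.3 and numpy 2.4.6, was the difference of the root arrays, with no filter on level and no test, and was checked on simulated data. Figures used matplotlib 3.10.9.

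The comparison, the 36 gene lists (1086 measured memberships of 1072 loci) and the naming rule were chosen with earlier results of these data known. ABCB4 was taken out of the oxidative stress list after the files were opened, and stays among the auxin transport genes. Of 1187 list entries, 58 had no locus in the gene table and 16 had none on the array. The rule named GSH1, the 15 largest differences in each direction among the 16075 loci above the median of at least 1 root array, and the extreme member past 2-fold of each list in each direction, 86 genes in all; other list members are examples. Alternatives were median centring, quantile normalization, another choice among entries, other thresholds, a level filter, and each shoot array left out. Values of a few genes are not reported here.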

Additional observations from a re-analysis of the deposited data

Results flagged for a closer look

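Among the 1096 loci of the gene lists and the naming rule, 389 differed at least 2-fold in roots, and at 45 of these the shoots stood the other way with no overlap between the 3 rml1 and the 3 wild type shoot arrays. Of all loci, 42.1% did not overlap between the shoot groups, in either direction. Whether root and shoot differ in their response was not tested, since roots have 1 array per genotype. In 12 of the 45 the shoot difference was at least 2-fold too. Shoot gaps were as small as 0.01 log2 units at the others, for example at NSP4 and GSTU5.

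Lower in rml1 root and higher in rml1 shoots were early flavonoid genes: TT4 differed by -2.62 in roots and by 1.63 in shoots, F3H by -2.12 and 2.01, TT5 by -2.00 and 1.59, and FLS1 by -3.36 and 0.99. The same pattern held for MYB10, a regulator in iron deficiency (-2.44 and 1.85), the channel NIP1;1 (-2.33 and 1.82), the thiolase KAT5 (-1.56 and 1.46), the jasmonate synthesis gene AOC4 (-1.41 and 1.57) and MYC2 (-1.55 and 0.69). It also held, with shoot differences below 1 log2 unit, for 19 further loci. Their root differences were -4.66 at AT3G26460, -3.09 at GSTU26, -2.16 at MAD2, -2.04 at PER64, -2.03 at IRX9, -1.91 at LAX3 and -1.86 at CASP1. YUC3 gave -1.69, CYCA1;1 gave -1.51, MYB34 and CKS2 each gave -1.48, NSP4 gave -1.23, TIP1;2 gave -1.16 and NSP1 and HAT2 each gave -1.15. SOT16 gave -1.12, CYP83B1 gave -1.11, and BBX20 and 4CL3 each gave -1.10.

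Higher in rml1 root and lower in rml1 shoots were 3 members of a wall enzyme family: XTH22, known as a touch-induced gene, differed by 2.42 in roots and by -1.69 in shoots, XTH23 by 2.29 and -1.28, and XTH24 by 2.53 and -1.95. DIN6, asparagine synthetase, differed by 1.54 and -2.63, and the sulfate transporter SULTR2;1 by 1.88 and -1.51. With smaller shoot differences stood ACS7 at 4.03 in roots, PS3 at 1.76, GSTU5 at 1.61, F5H at 1.58, AMT1;5 at 1.499 and XTH27 at 1.41. APR2 gave 1.30, PR3 gave 1.25, PIP2;6 gave 1.22, CCS1 gave 1.17, GAPA gave 1.04 and COPT1 gave 1.01 in roots.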

How the results depend on the processing

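No paired analysis was possible because each root group has 1 array and no result comes from a test. At 1.5-fold 3903 loci were higher and 4369 lower in rml1 root, and at 4-fold 375 and 504. With the largest same-genotype shoot difference at the locus itself as the guide, 14041 of 29920 loci exceeded it. With 3 arrays per genotype this is a weak bound on noise at a single locus. Without each shoot array in turn, the loci past the level guide numbered 4070 to 4953, the share of loci 2-fold apart in shoot pairs was 1.201% to 1.395%, and loci shared with shoots numbered 301 to 349 higher and 192 to 235 lower. Centring or quantile normalization moved the median of all loci to 0.02 or 0.03. List medians that moved by more than their spread in shoots were as follows. Under centring they were photosynthesis 0.47, strigolactone 0.12, nitrogen 0.00079 (a change of sign from -0.04) and aquaporins -0.79. Under quantile normalization they were mitosis -0.99, photosynthesis 0.39, ethylene and gibberellin 0.49, and jasmonate 0.011 (a change of sign from -0.06). With members above the array median only, they were glutathione 0.53, mitosis -1.43, D-type cyclins 0.26, DNA damage 0.59, root cap -1.04, xylem -1.76, phloem -0.25 and seed reserves 0.59. They were also glyoxylate and sugar 1.18, strigolactone 0.27, cytokinin -0.60, ethylene and gibberellin 0.77, jasmonate -0.41, salicylate 0.78, glucosinolate -1.23, nitrogen 0.011, phosphate 0.26, iron -0.92, aquaporins -1.16 and heat shock 0.79. The 86 named genes kept their sign in all 258 recomputed values, which their choice fixed in advance. The largest move was 0.08 log2 units, and all of them but GSH1, at 0.83, were chosen for differences of at least 1 log2 unit. Low signals limit several lists: a root array was above its median for 2 of 21 seed reserve genes, 5 of 13 DNA damage genes and 13 of 29 jasmonate genes. Root noise itself remains unmeasured.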

Other observations

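Gene families were also grouped by the stem of their symbol, for 170 stems with at least 10 members, and those below were picked after their values were seen. Fasciclin-like arabinogalactan proteins (FLA), which sit at the outer face of the plasma membrane, were lower in 11 of 19 cases and higher in none, with a median difference of -1.96 and FLA8 at -3.17. Early nodulin-like proteins (ENODL) were lower in 11 of 22 cases and higher in none. TBL genes, which act in wall polysaccharide acetylation, were lower in 12 of 41 and higher in none. Histone H2A genes (HTA) were lower in 5 of 10 cases with a median of -0.95. UMAMIT genes, most of them amino acid transporters, were lower in 13 of 42 and higher in 5, from UMAMIT26 at -4.41 to UMAMIT14 at 3.39. On the higher side stood aldehyde dehydrogenases (ALDH), 5 of 14 with none lower, and NAC transcription factors, 16 of 78 with 6 lower. NAC044 was highest among the latter, at 3.26. Over all loci 5.25% were higher and 7.33% lower.

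Of 33 loci of the mitochondrial genome on the array, 16 were at least 2-fold higher in rml1 root and none lower, with a median difference of 0.98. At the median their level was 4.87 in rml1 root and 3.40 in wild type root; shoot arrays of either genotype gave 3.33 to 3.83. ATMG00160 was 8.92 in rml1 root and 4.26 in wild type root. Of 67 loci of the plastid genome, 9 were higher and 9 lower, with a median of 0.17. Transcripts of both organelles mostly lack the poly(A) tails of nuclear messengers, and how RNA labelling treated them in these pools was not tested.

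Over the whole array 61 loci were at least 2-fold different in roots and at least 2-fold the other way in shoots without overlap, 25 higher and 36 lower in rml1 root. They included TUB1, a beta-tubulin (-2.54 in roots and 1.42 in shoots), CHIL, a chalcone isomerase-like gene of the flavonoid pathway (-2.57 and 1.16), and CYP81D11 (-1.35 and 2.78). On the other side stood PHI-1, a phosphate-induced gene (2.47 and -2.24), and NDA1, an alternative NADH dehydrogenase (1.78 and -1.15). These loci were chosen after their values were seen.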
